A study of Mus musculus with 6 samples.

Results

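Families of developmental transcription factors were followed in RNA-Seq data from the mouse small intestine. The genes were chosen by symbol, as every gene of the Hox, Fox, Tbx, sine oculis (Six4 and Six5 here), Dlx, Lhx, Msx, Zic and Glis families listed in the count table, which gave 65 of 19616 genes. They comprised 27 Fox, 21 Hox, 7 Tbx, 3 Lhx, 3 Glis, 2 sine oculis, 1 Dlx and 1 Msx gene, and no Zic gene. Intestinal epithelial cells (IEC) of the jejunum were enriched by EDTA treatment from 3 wildtype control mice (C1, C3 and C3-3) and 3 villin-Cre Hdac1-/-; Hdac2-/- mice (H1, H5 and H9), all aged 3 months, with 1 library per mouse. Villin-Cre recombines floxed alleles in the epithelium and not in the mesenchymal, neural or immune cells beneath it, and the colony has a mixed C57BL/6J, 129SV and CD1 background. The labels name no Cre transgene in the controls.

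HDAC1 and HDAC2 are histone deacetylases, enzymes of repressor complexes that remove acetyl groups from histones. Hox genes lie in clusters and give cells their position along the body axis, and the other families here carry homeodomains, forkhead domains, T-boxes or Gli-like zinc fingers that bind DNA and set cell identity in the embryo. In the adult intestine some Fox factors (Foxa, Foxo and Foxp) are expressed in the epithelium, while Foxf and several Hox genes are active in the mesenchyme around it.

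The libraries held 36111035 to 65902344 gene-assigned reads. Expression is given as CPM, read counts scaled by library total and by a TMM factor (a between-library normalization). A count of 3, used as the detection floor, equals 0.0405 to 0.0790 CPM depending on the mouse and covers counting error only. Hdac1 fell from 34.5 to 48.9 CPM in controls to 2.53 to 4.81 CPM in Hdac1/2-deleted IEC, whereas Hdac2 read 23.6 to 32.9 CPM in controls and 21.4 to 26.6 CPM in deleted IEC (log2 fold change -0.18, adjusted p = 0.438). Epithelial marker genes, 10 in number, summed to 14270 to 19370 CPM over the 6 mice, with 1 of them, Krt18, increased. The preparations also held other cells: 12 mesenchyme genes summed to 16.9 to 81.4 CPM in controls and 19.0 to 30.2 CPM in deleted IEC, and 13 T and NK lymphocyte genes to 161.0 to 615 CPM and 86.8 to 193 CPM. Smooth muscle genes differed between the groups more than the mesenchyme sum, since Myh11 read 0.452 to 25.4 CPM in controls and was at 0 reads in H5 and H9. Pdgfrb went the other way, with 0.864 to 2.51 CPM in controls and 9.30 to 19.35 CPM in deleted IEC. It was the largest part of the mesenchyme sum in each deleted mouse, so that sum is a poor measure of mesenchymal content there. Reads of 4 Y-linked genes numbered 3082 in C3 and at most 13 in any other mouse, the pattern of 1 male control and otherwise female mice. The labels give no sex. By these reads the groups differed in sex make-up, and the part of sex in the differences was not tested. In such bulk RNA, fewer cells of a type and less RNA per cell cannot be told apart.

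Of the 65 genes, 46 had enough reads to be tested. In Hdac1/2-deleted IEC 12 of them were increased and 3 decreased, by edgeR's quasi-likelihood test, where a call needed a Benjamini-Hochberg adjusted p of at most 0.05 among 15618 genes and a 2-fold difference or more. The 12 increased genes were 26.1% of those tested, against a background of 12.4 percent of all genes, and the 3 decreased genes were 6.52%, against 12.7 percent. Without the 2-fold limit, 15 were higher and 4 lower, where the background is 20.5 and 20.3 percent. Every deleted mouse lay above every control for 18 of the 46 genes and below for 7, where the background is 26.7 and 26.6 percent. The median log2 fold change of the 46 genes was 0.41, beside -0.008 for all genes tested. These p-values measure the spread between mice, 3 per group, and an exact permutation test of a single gene at this size cannot give a p below 0.10.

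**Figure D1:**
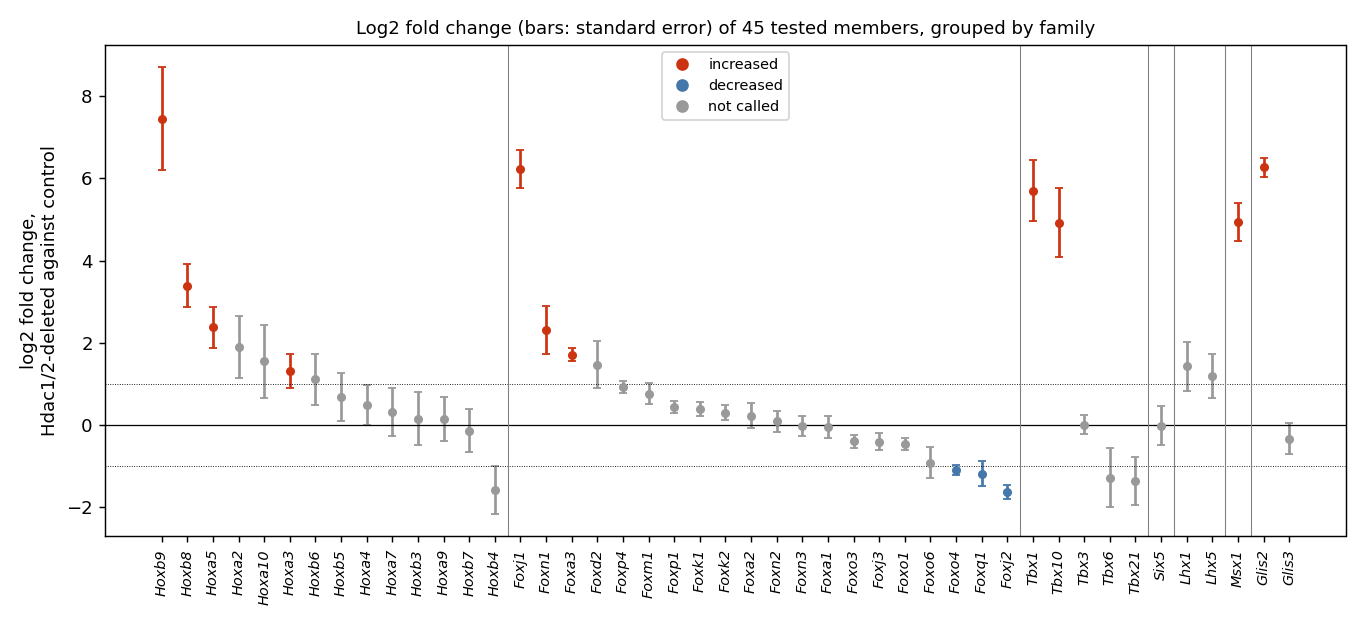
Log2 fold change of 45 of the tested genes, Hdac1/2-deleted against control, with its standard error as a bar, grouped by family (vertical lines) and sorted within it. Dotted lines mark a 2-fold change. Red genes were increased, blue genes decreased and grey genes not called. The increased genes ran from 1.31 for Hoxa3 upwards, and the decreased genes, all Fox genes, from -1.09 to -1.62. The value of Hoxb9, which had no reads in controls, depends on the prior count of the fit.

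Nearly all increased genes were close to silent in control IEC: 11 of the 12 had a control mean below 1 CPM, and the exception was Foxa3. Genes with almost no control reads, such as Hoxb9, Tbx10, Foxj1, Msx1 and Tbx1, passed the limit for testing only through the deleted mice. Their direction was thus set by their entry into the test. Neither their part in the share of increased genes nor their low control level is a separate result. Genes called in both directions are shown for each mouse in the plot that follows.

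**Figure D2:**
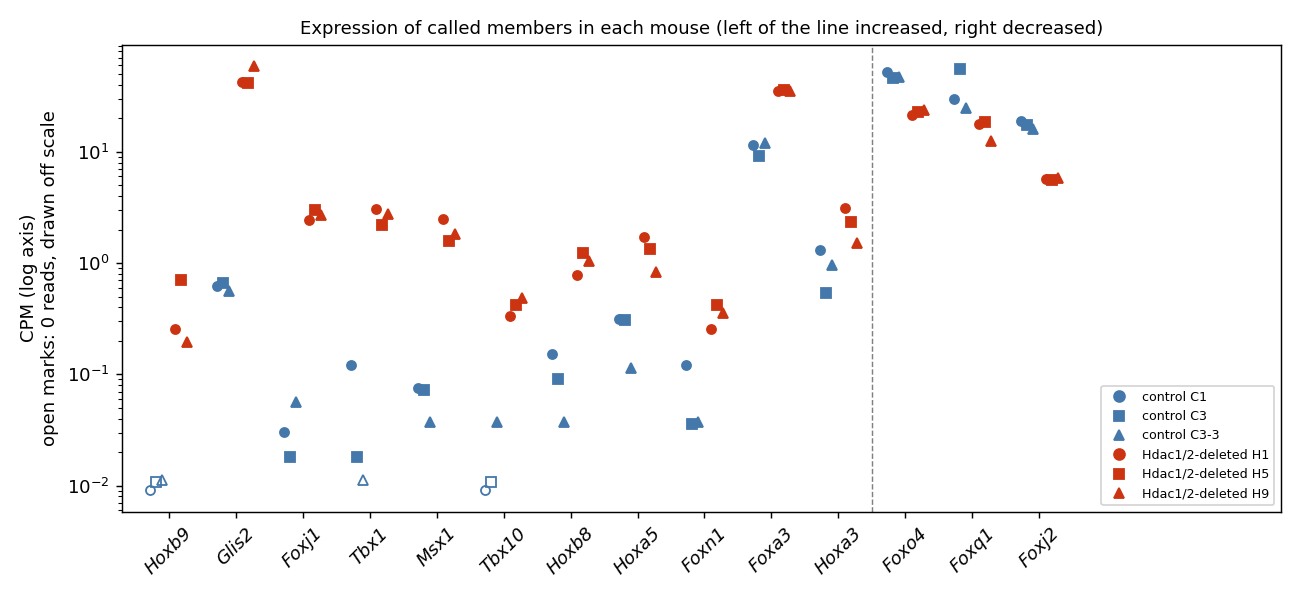
CPM of 14 called genes in each of the 6 mice on a log axis, 11 increased genes to the left of the dashed line and 3 decreased genes to the right. Open marks are libraries with 0 reads and are drawn off scale. In all 14 genes the 3 Hdac1/2-deleted mice lie on 1 side of the 3 controls, and Foxa3 is the increased gene with the highest control levels, 9.11 to 12.01 CPM.

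Promoter sequences are printed for 4 of these genes whose changes are described below, to show the bases in front of their start sites. Each run is the 250 bases before a RefSeq transcription start in GRCm38.p6, written 5′ to 3′ on the strand of the gene, with every CG dinucleotide in capitals. Msx1 lies on the minus strand (chr5:37824586-37824835, 20 CG), Hoxb8 on the plus strand (chr11:96281655-96281904, 12 CG), Foxa3 on the minus strand (chr7:19023540-19023789, 18 CG) and Foxj2, the decreased gene among them, on the plus strand (chr6:122819934-122820183, 36 CG).
Msx1: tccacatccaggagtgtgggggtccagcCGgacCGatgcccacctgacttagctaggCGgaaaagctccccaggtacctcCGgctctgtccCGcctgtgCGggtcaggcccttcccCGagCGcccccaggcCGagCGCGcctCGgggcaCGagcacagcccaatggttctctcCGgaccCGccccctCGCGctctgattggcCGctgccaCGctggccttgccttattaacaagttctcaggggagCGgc
Hoxb8: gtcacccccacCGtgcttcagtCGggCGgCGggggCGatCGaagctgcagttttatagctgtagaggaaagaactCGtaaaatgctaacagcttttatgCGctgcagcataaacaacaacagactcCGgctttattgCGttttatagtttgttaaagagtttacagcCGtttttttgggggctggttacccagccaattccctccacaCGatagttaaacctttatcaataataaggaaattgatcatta
Foxa3: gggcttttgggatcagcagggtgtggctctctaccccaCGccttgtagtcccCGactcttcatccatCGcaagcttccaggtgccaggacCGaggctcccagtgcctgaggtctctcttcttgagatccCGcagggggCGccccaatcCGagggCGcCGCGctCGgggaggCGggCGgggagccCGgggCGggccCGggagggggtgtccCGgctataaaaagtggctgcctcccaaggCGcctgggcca
Foxj2: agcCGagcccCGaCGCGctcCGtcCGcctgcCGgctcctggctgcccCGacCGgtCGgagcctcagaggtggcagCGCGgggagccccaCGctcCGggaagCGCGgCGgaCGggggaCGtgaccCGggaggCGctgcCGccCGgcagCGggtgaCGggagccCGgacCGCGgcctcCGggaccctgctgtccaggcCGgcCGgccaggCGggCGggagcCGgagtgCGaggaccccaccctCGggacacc

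Of the 65 genes, 39 matched RefSeq promoters by symbol, 48 in all. Their median was 16 CG dinucleotides in 250 bases, beside 6 over all 32851 listed promoters of the same length. The 9 promoters of 8 increased genes had a median of 17, with a range from 3 for Tbx10 to 28 for Hoxa5, and the 25 promoters of genes not called had a median of 16. Foxj2, at the 97.4th percentile of all listed promoters, was the 1 decreased gene with a listed window. The letters GGGCGG, read on both strands, occurred in 66.7% of the 48 promoters and 32.7% of all listed ones, CCAAT in 39.6% and 33.8%, and TATAAA in 14.6% and 12.4%. By these counts the families as a whole have CG-rich starts, and the increased genes are close to the genes not called.

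Glis2, a Gli-like zinc finger factor best known from the kidney, showed the smallest p-value of the 65 genes and was number 5 by p-value among all genes tested. It had 41, 37 and 30 reads in C1, C3 and C3-3 and 3144, 1587 and 3640 in H1, H5 and H9. This corresponds to 0.617 ± 0.0509 CPM in control and 47.8 ± 9.86 CPM in deleted IEC (SD, n = 3). The deleted mice were far above the controls and the groups did not overlap, at a log2 difference of 6.27 (SE, the standard error, 0.23, adjusted p = 1.55e-06). Per kilobase of merged exons, the Glis2 level rose from 0.141 to 10.9 CPM. Glis2 (ENSMUSG00000014303, chr16:4594713-4624924 of GRCm38) shares 10.4% of its exon bases with Pam16 on the opposite strand. Pam16 read 16.9 to 18.2 CPM in controls and 13.2 to 14.4 CPM in deleted IEC. An effect of this overlap on the Glis2 counts was not tested. Glis3, a relative of Glis2 and a factor of pancreatic and kidney development, was at 0.826 ± 0.191 CPM in control and 0.660 ± 0.165 CPM in deleted IEC. It was not called (log2 fold change -0.33, adjusted p = 0.514).

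Among genes of the related Hedgehog pathway, taken from a list of 11, 5 could be tested and 1, Gli1, was increased (background 12.4 percent). Gli1, a direct effector and target of Hedgehog signaling, read 0.0755, 0 and 0.0188 CPM in controls and 0.149, 0.395 and 0.179 CPM in deleted IEC (log2 fold change 2.72, SE 0.86, adjusted p = 0.0319), and it was called in 1 of the 6 fits that each left out a mouse. The deleted mice had 11, 15 and 11 reads of Gli1.

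Foxj1, the forkhead factor that directs the formation of motile cilia, had 2, 1 and 3 reads in the controls and 180, 114 and 168 in the deleted mice. Its level rose from 0.0349 ± 0.0197 CPM to 2.72 ± 0.286 CPM. The deleted mice varied little among themselves, and the log2 difference was 6.22 (SE 0.46, adjusted p = 2.62e-05). A list of 29 genes of motile cilia was written after the Foxj1 values had been seen and so was not tested as a list. It had 19 genes in the table and 11 tested, of which 3 were increased and 1 decreased (background 12.4 and 12.7 percent). Hydin, a central pair protein of the axoneme, had 0 to 0.0376 CPM in controls and 0.369 to 1.17 CPM in deleted IEC (log2 fold change 5.49, adjusted p = 0.000802), and the dynein heavy chain gene Dnah11 had 0.0360 to 0.0753 and 0.351 to 0.536 CPM (log2 fold change 3.10, adjusted p = 0.00152). Rsph1, a radial spoke gene, was also increased (log2 fold change 1.25, adjusted p = 0.0425), while the dynein intermediate chain gene Dnaic2 was decreased (log2 fold change -1.47, adjusted p = 0.0279), and neither call was stable, since they were made in 1 and 0 of the 6 fits without a mouse. The summed level of the 19 genes was 22.2 to 35.1 CPM in controls and 29.6 to 37.5 CPM in deleted IEC, which overlap. Most of that sum in every mouse came from 1 gene, Dnaaf1 (14.95 to 25.35 CPM in controls, 17.05 to 24.69 CPM in deleted IEC). Of the 11 tested genes 8 had a positive log2 fold change, with a median of 0.345. A rise of Foxj1 was thus seen beside a rise of Hydin and Dnah11 that held in all 6 fits without a mouse. With 1, 0 and 2 control reads of Hydin and 3, 2 and 4 of Dnah11, both passed the limit for testing only through the deleted mice. The tested genes not called had log2 fold changes from -0.07 (Dnaaf1) to 0.83 (Rfx2), with Rsph9 at 0.003 and Ccdc40 at 0.10. Of these, Rfx3 (0.79) passed the p limit but not the fold limit (adjusted p = 0.0263).

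Both T-box genes that were increased are relatives within the family. Tbx1, a regulator of pharyngeal development, had 8, 1 and 0 reads in C1, C3 and C3-3 and 228, 84 and 169 in H1, H5 and H9. Its mean was 0.0463 ± 0.0652 CPM in control and 2.68 ± 0.437 CPM in deleted IEC (log2 fold change 5.69, SE 0.74, adjusted p = 0.000478). Tbx10, a T-box gene close in sequence to Tbx1, had 0, 0 and 2 reads in controls and 25, 16 and 30 in deleted mice. With so few control reads its change is given as a ratio of summed normalized counts, 35.8, with a 95% counting interval from 9.54 to 301 (adjusted p = 0.00176 in edgeR's test). In both genes every deleted mouse was above every control.

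Tbx3, a repressor active in many developing organs, was by far the most abundant T-box gene and did not move with them. It read 106, 180.0 and 180.1 CPM in controls and 137, 144 and 188 CPM in deleted IEC. C1 was the low control and the groups overlapped, with a log2 fold change of 0.009 (95% interval -0.50 to 0.52, adjusted p = 0.978). Per kilobase of exon the level of Tbx3 was 23.5 CPM in control and 23.6 CPM in deleted IEC, against 0.762 CPM for Tbx1 in deleted IEC.

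Tbx21 encodes T-bet, a factor of T and NK lymphocytes. Its levels were 0.679, 2.61 and 2.13 CPM in C1, C3 and C3-3 and 0.338, 0.658 and 1.11 CPM in H1, H5 and H9. The low control, C1, lay within the deleted mice, and the log2 fold change of -1.36 was not called (adjusted p = 0.0935), although without C1 it was -1.75 with an adjusted p of 0.0198. The mice high in Tbx21 were those high in lymphocyte genes: per 1000 CPM of the 13 T and NK lymphocyte genes, Tbx21 read 4.22, 4.25 and 4.08 CPM in controls and 3.89, 3.42 and 6.32 CPM in deleted IEC. Of these 13 genes 12 were tested, with 1 increased (Cd4) and 2 decreased (Cd3g and Cd8a) by edgeR's test (background 12.4 and 12.7 percent). DESeq2 called 7 decreased, beside 1995 of all 15618 genes. At an unadjusted p under 0.05 in edgeR's test 7 were lower, where the background is at least 20.3 percent, the share lower at an adjusted p of at most 0.05. Without a mouse in turn, Cd3g kept its call in 2 and Cd8a in 1 of the 6 fits. The part of lymphocyte content in the Tbx21 difference was not tested.

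Msx1, a homeobox gene of craniofacial and limb development, had 5, 4 and 2 reads in controls and 185, 60 and 113 in deleted mice. Its mean was 0.0617 ± 0.0209 CPM in control and 1.97 ± 0.473 CPM in deleted IEC (log2 fold change 4.94, SE 0.45, adjusted p = 6.81e-05). It is the 1 member of its family in the table, and its log2 fold change ranged from 4.71 to 5.12 when each mouse was left out in turn.

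Hox genes were low throughout, and 19 of the 21 had fewer than 100 reads in every mouse. Of the 15 tested, 5 were increased (33.3%, background 12.4 percent) and 0 decreased (background 12.7 percent) by edgeR's test and by DESeq2. Hoxb4 was the 1 lower gene at an unadjusted p under 0.05. The log2 fold change was positive for 13 of the 15 and negative for Hoxb4 and Hoxb7. All 8 tested Hoxa genes had a positive log2 fold change, with a median of 1.43, and the median of the 7 tested Hoxb genes was 0.67.

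In the Hoxa cluster, Hoxa5, a gene of lung and axial development, rose from 21, 17 and 6 reads to 126, 51 and 51, that is from 0.245 ± 0.115 CPM to 1.29 ± 0.438 CPM (log2 fold change 2.38, SE 0.49, adjusted p = 0.00471). Hoxa3, a gene of the pharyngeal arches, had the highest Hox CPM, with 1.31, 0.540 and 0.960 CPM in controls and 3.15, 2.34 and 1.53 CPM in deleted IEC. H9 was only slightly above C1, and the change of Hoxa3 (log2 fold change 1.31, SE 0.42, adjusted p = 0.0330) was lost without C3, C3-3, H1 or H5, with an adjusted p from 0.0734 to 0.122.

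The remaining Hoxa genes were not called. Hoxa2 had 5, 1 and 11 reads in controls and 46, 10 and 13 in deleted mice (log2 fold change 1.89, adjusted p = 0.0743), and it was called when C3-3 was left out (log2 fold change 2.90, adjusted p = 0.0302). Hoxa4, Hoxa7, Hoxa9 and Hoxa10 overlapped between groups, with log2 fold changes of 0.14 to 1.55. Hoxa13, the most posterior gene of the cluster, fell below the limit for testing, with no reads in the controls and 9, 15 and 4 in H1, H5 and H9, at least 9.40-fold higher against 3 counts over the control group. Hoxa11 was found in H1 alone, with 16 reads. H1 had the highest level of 8 of the 10 Hoxa genes, and the summed Hoxa level was 2.76, 1.78 and 3.11 CPM in controls and 9.31, 6.74 and 4.05 CPM in H1, H5 and H9. The Hoxa sum was thus above the controls in each deleted mouse but differed more than 2-fold among them.

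Hoxb8 and Hoxb9, which are neighbours in the Hoxb cluster, were the increased genes there. Hoxb8, a gene of posterior body patterning, had 10, 5 and 2 reads in controls and 58, 47 and 64 in deleted mice, a rise from 0.0929 ± 0.0567 CPM to 1.02 ± 0.228 CPM (log2 fold change 3.39, SE 0.53, adjusted p = 0.00111). Hoxb9, a gene of thoracic skeletal patterning, had no reads in the 3 controls and 19, 27 and 12 in deleted mice, at least 19.5-fold higher against 3 counts over the control group (adjusted p = 0.00326 in edgeR's test). Hoxb4 and Hoxb2 had lower levels in the deleted mice. Hoxb4 had 41, 14 and 24 reads in controls and 5, 5 and 15 in deleted mice (log2 fold change -1.58, adjusted p = 0.0578), and was called decreased without C3 (adjusted p = 0.0479) or without H9 (adjusted p = 0.0405). Hoxb2 was below the limit for testing, with 49, 10 and 20 reads in controls and 9, 1 and 1 in deleted mice. It was decreased when no filter on low counts was used (log2 fold change -2.82, adjusted p = 0.0211). Its exons overlap those of an antisense gene, Hoxb3os, described below. The summed Hoxb level, 2.52, 1.15 and 1.79 CPM in controls and 2.07, 3.45 and 2.49 CPM in deleted IEC, overlapped between groups, and the 2 Hoxc genes had at most 11 reads together in any mouse.

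**Figure D3:**
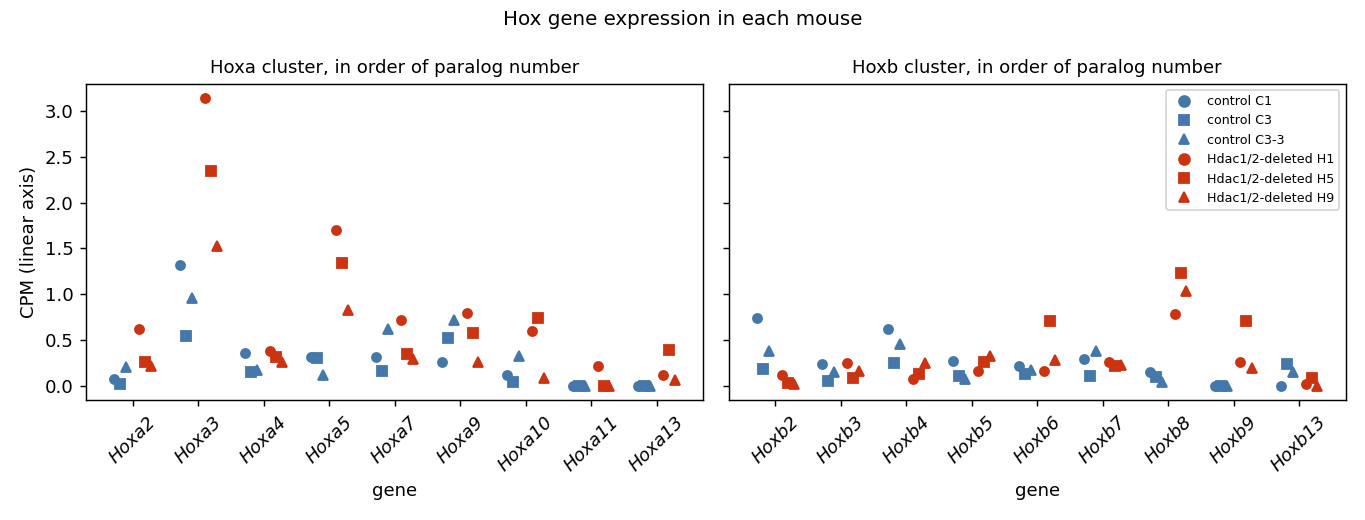
CPM of 9 Hoxa and 9 Hoxb genes of the table in each of the 6 mice, on a linear axis, in order of paralog number. Hoxa3 and Hoxa5 and, in the other cluster, Hoxb8 and Hoxb9 lie higher in the 3 Hdac1/2-deleted mice than in the 3 controls, and Hoxb2 and Hoxb4 lie lower. H1 is the highest mouse for most Hoxa genes.

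Noncoding transcripts of the Hoxa cluster were increased as well. Hotairm1 had 14, 2 and 8 reads in controls and 112, 32 and 66 in deleted mice (log2 fold change 3.07, SE 0.57, adjusted p = 0.00277). Hoxaas3 had 18, 3 and 9 reads and 131, 66 and 30 (log2 fold change 2.97, adjusted p = 0.00723). Hoxaas3 overlaps 4.94% of the exon bases of Hoxa3 and 20.4% of those of Hoxa7 on the opposite strand. Reads of these pairs may be shared unless the counting used strand, which is not given. The list of Hox neighbours had 6 of 17 genes in the table, 4 tested and 3 increased (background 12.4 percent). The third was Gbx2, a homeobox gene outside the clusters that helps to form the hindbrain boundary, which had 0 CPM in the 3 controls and 0.176, 0.395 and 0.276 CPM in deleted IEC (adjusted p = 0.00213). Hoxb3os, antisense to Hoxb2 and Hoxb3, had 37, 14 and 8 reads in controls and 2, 1 and 0 in deleted mice and was not tested. It overlaps 27.3% of the exon bases of Hoxb2 and 52.9% of those of Hoxb3. The same limit thus holds for reads of these genes.

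Partners of the Hox proteins changed in both directions. Of 11 TALE homeodomain genes, 9 were tested, 2 increased and 1 decreased (background 12.4 and 12.7 percent). Tgif2, a TALE repressor, read 1.01, 0.558 and 0.715 CPM in controls and 8.72, 8.14 and 7.17 CPM in deleted IEC (log2 fold change 3.39, SE 0.30, adjusted p = 5.75e-05), and the Hox cofactor Pbx3 rose by a log2 fold change of 1.18 (adjusted p = 0.0136). Meis2, another Hox cofactor, went from 1.21, 1.03 and 1.52 CPM to 0.135, 0.0790 and 0.146 CPM (log2 fold change -3.32, SE 0.42, adjusted p = 0.000395). The ParaHox genes Cdx1, Cdx2 and Pdx1, which specify intestinal and duodenal identity, were not called by edgeR or DESeq2, with log2 fold changes of -0.04, 0.41 and 0.98 and 1 of the 3, Cdx2, at an unadjusted p under 0.05.

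Of 20 tested Fox genes 3 were increased and 3 decreased (15.0% each), near the background of 12.4 and 12.7 percent. The subgroups named by letter moved differently, as the plot of the more abundant genes shows.

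**Figure D4:**
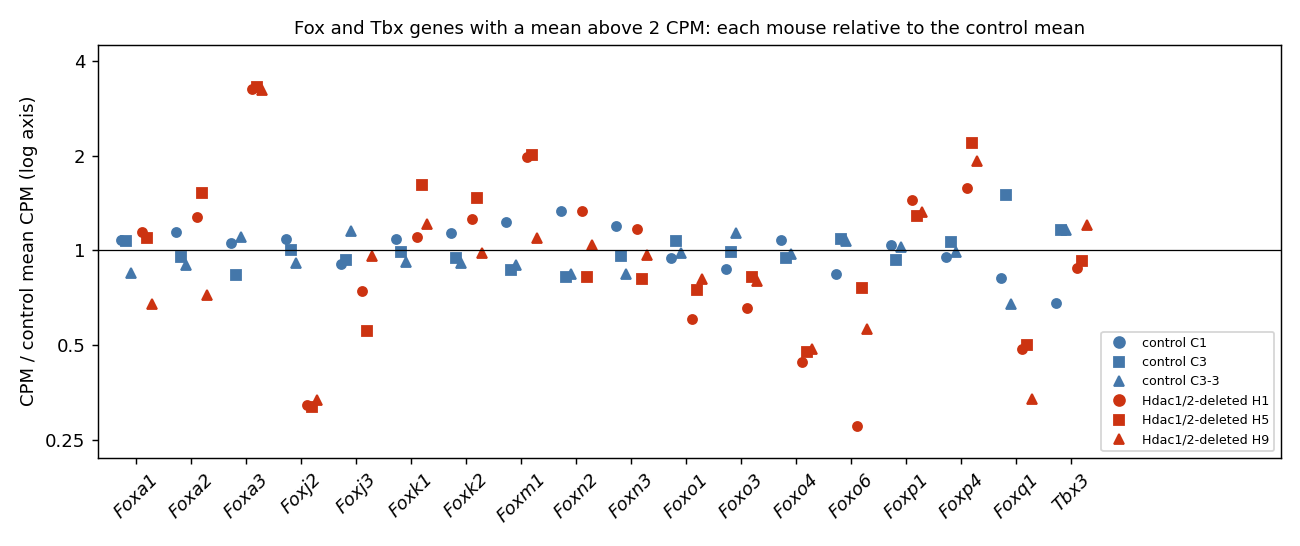
CPM of each Fox and Tbx gene with a mean above 2 CPM, divided by the mean of its 3 controls, in each of the 6 mice, on a log axis where the line marks the control mean. Foxa3 lies above 3 in all 3 Hdac1/2-deleted mice, Foxj2 near 0.325, and Foxo4 below 0.5, while Foxa1, Foxn3 and Tbx3 scatter around the line.

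Foxa factors open chromatin in the endoderm, and Foxa3 separated from its relatives. Foxa3 read 11.5, 9.11 and 12.01 CPM in controls and 35.5, 35.8 and 35.2 CPM in deleted IEC. The deleted mice were almost identical and the groups were far apart, with a 3.26-fold rise (log2 fold change 1.71, SE 0.16, adjusted p = 7.41e-05). Foxa1 (5.65 ± 0.757 and 5.51 ± 1.47 CPM) and Foxa2 (3.59 ± 0.467 and 4.22 ± 1.47 CPM) overlapped between groups, with log2 fold changes of -0.04 (95% interval -0.64 to 0.56) and 0.23 (-0.48 to 0.93). Per kilobase of exon the level of Foxa3 was 5.34 CPM in control and 17.4 CPM in deleted IEC, and those of Foxa1 and Foxa2 lay between 1.52 and 1.78 CPM in either group.

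Foxj2, a widely expressed forkhead factor, fell from 19.0, 17.6 and 16.1 CPM to 5.67, 5.58 and 5.87 CPM. It had the strongest decrease of the 46 genes among those called, 3.07-fold (log2 fold change -1.62, SE 0.17, adjusted p = 0.000139). Its relative Foxj3 read 54.0, 55.5 and 68.7 CPM in controls and 44.2, 33.0 and 57.2 CPM in deleted IEC and was not called (log2 fold change -0.41, adjusted p = 0.146). The 3 Foxj genes thus went different ways, Foxj1 up from near 0, Foxj2 down and Foxj3 overlapping.

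Foxo factors are active when insulin signaling is low and are switched off by AKT phosphorylation, which RNA does not show. All 4 Foxo genes had lower levels in each deleted mouse than in each control (background 26.6 percent), and 1, Foxo4, was called (background 12.7 percent). Foxo4 read 52.1, 45.7 and 47.2 CPM in controls and 21.4, 23.0 and 23.6 CPM in deleted IEC, a 2.13-fold fall (log2 fold change -1.09, SE 0.13, adjusted p = 0.000293). Foxo1 passed the p limit but not the fold limit (log2 fold change -0.47, adjusted p = 0.0323), and Foxo3 (-0.40, adjusted p = 0.0670) and Foxo6 (-0.92, adjusted p = 0.0841) did not pass, though Foxo6 was called without H5 (-1.25, adjusted p = 0.0441). The 4 genes summed to 193, 206 and 218 CPM in controls and 121, 149 and 149 CPM in deleted IEC.

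Genes that FoxO factors are known to activate, from a list of 16, were tested for 15, of which 6 were decreased (background 12.7 percent) and 0 increased by edgeR's test. DESeq2 called 7 decreased and 0 increased, beside 1995 and 2012 of all 15618 genes. At an unadjusted p under 0.05 in edgeR's test 10 were lower and 1, Sod2, higher. The background there is at least 20.3 and 20.5 percent, the shares at an adjusted p of at most 0.05. The median log2 fold change of the list was -1.07. Pck1, the gluconeogenic enzyme, read 2778, 884.6 and 2014 CPM in controls and 88.1, 33.0 and 78.7 CPM in deleted IEC (log2 fold change -4.83, SE 0.58, adjusted p = 0.000773). The cell cycle inhibitor Cdkn1b (log2 fold change -2.04), catalase, Cat (-1.36), and the cyclin gene Ccng2 (-1.22) fell with adjusted p-values from 0.000386 to 0.000652, as did the ubiquitin ligase genes Fbxo32 (-1.07, adjusted p = 0.0102) and Trim63 (-1.60, adjusted p = 0.0267). Without a mouse in turn, Fbxo32 kept its call in 4 and Trim63 in 1 of the 6 fits, and the other 4 genes in all 6. Whether FoxO activity takes part in these differences was not tested.

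Foxp4 and Foxp1, the Foxp genes that were tested, were higher in the deleted mice at less than 2-fold. Foxp4, a factor of lung and gut endoderm and the Fox gene with the highest level per kilobase of exon, read 90.7, 101 and 94.0 CPM in controls and 150.3, 209 and 183 CPM in deleted IEC (log2 fold change 0.92, SE 0.15, adjusted p = 0.00156). All deleted mice were above the controls, and without H1 the gene passed the 2-fold limit (log2 fold change 1.04). Foxp1, which is also expressed in lymphocytes, was higher by a log2 fold change of 0.44 (adjusted p = 0.0342). The 4 Foxp genes summed to 110, 119 and 113 CPM in controls and 177, 233 and 208 CPM in deleted IEC, nearly all of it from Foxp4 and Foxp1, since Foxp2 and the regulatory T cell factor Foxp3 had at most 21 reads in any mouse.

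Foxm1, which drives genes of mitosis, read 16.5, 11.6 and 12.1 CPM in controls and 26.5, 27.0 and 14.7 CPM in deleted IEC. H9 lay among the controls, and the log2 fold change of 0.76 (adjusted p = 0.0419) rose to 1.003 with an adjusted p of 0.00795 without it. Of 12 genes that Foxm1 is known to activate, 11 had a positive log2 fold change, with a median of 0.30 for the list. The 1 increased gene (background 12.4 percent) was the centromeric histone gene Cenpa (log2 fold change 1.89, adjusted p = 0.000149).

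Foxq1, a forkhead gene of mucus-producing and hair cells, read 30.1, 55.2 and 24.9 CPM in controls and 17.9, 18.4 and 12.4 CPM in deleted IEC. C3, the mouse with Y-linked reads, was far above the other controls. The 2.27-fold fall (log2 fold change -1.18, SE 0.31, adjusted p = 0.0154) lost its call without C3 (log2 fold change -0.76) and without H9 (adjusted p = 0.0547). A gene on the opposite strand, A530084C06Rik, covers 66.1% of the exon bases of Foxq1 and had 34 to 100 reads in each mouse. An effect of this overlap on the Foxq1 counts was not tested. Foxn1, the factor of thymic and hair epithelium, was increased at a very low level, from 8, 2 and 2 reads to 19, 16 and 22 (log2 fold change 2.31, SE 0.59, adjusted p = 0.0124). Foxk1, Foxk2, Foxn2 and Foxn3 were not called, with log2 fold changes of -0.02 to 0.39.

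Few sine oculis, Dlx and Lhx genes were expressed, and 0 were called by edgeR's test or by DESeq2, with 1 Lhx gene, Lhx1, at an unadjusted p under 0.05. Six5, a homeobox gene linked to muscle, read 0.966, 0.684 and 0.433 CPM in controls and 0.580, 1.08 and 0.439 CPM in deleted IEC (log2 fold change -0.01, 95% interval -1.08 to 1.05), and its sign turned with the scaling. Of the Eya and Dach cofactors, Eya2 was increased (log2 fold change 1.66, adjusted p = 0.00995), 1 of 4 tested (background 12.4 percent). Lhx5, a LIM homeodomain gene of the forebrain, had 9, 29 and 29 reads in controls and 87, 26 and 53 in deleted mice (log2 fold change 1.19, adjusted p = 0.104), and Lhx1, a LIM homeodomain gene of the kidney, had 25, 7 and 6 reads and 24, 21 and 51 (1.43, adjusted p = 0.0833), called without C1 (2.23, adjusted p = 0.0215). Of the 5 tested LIM homeodomain partners 0 were called by edgeR or DESeq2, and 0 had an unadjusted p under 0.05. Dlx3 had 1 to 3 reads in every mouse, too few to show a difference.

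The 19 genes that were not tested had at most 49 reads in any mouse. Several are known from mesenchyme: Foxf1, a factor of gut mesenchyme, had 15, 8 and 1 reads in controls and 5, 0 and 0 in deleted mice, Foxp2 had 21, 3 and 0 and then 2, 0 and 0, and Tbx2 had 15, 11 and 1 and then 3, 2 and 6. Foxf2, the relative of Foxf1, had 13, 2 and 1 and then 4, 1 and 4, so only C1 stood above the deleted mice. C1, the control richest in mesenchyme transcripts, had the most reads for 8 of the 19 genes. It was also the library with the most reads in total, and in CPM Foxh1, 1 of the 8, was highest in H5 (0.105 CPM, beside 0.0906 in C1). Of 12 mesenchyme genes 10 were tested, with 5 decreased (Acta2, Myh11, Des, Tagln and Dcn) and 1 increased (Pdgfrb). The background is 12.7 and 12.4 percent. The part of mesenchymal content in the low Hox, Foxf and Tbx counts was not tested. Foxd3, a neural crest factor, went the other way, with 3, 5 and 0 reads in controls and 23, 8 and 7 in deleted mice, and 5 genes of enteric neurons and glia summed to 3.07 to 5.53 CPM in controls and 6.24 to 8.94 CPM in deleted IEC, with 0 of 3 tested called by either tool and 1 higher at an unadjusted p under 0.05.

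**Figure D5:**
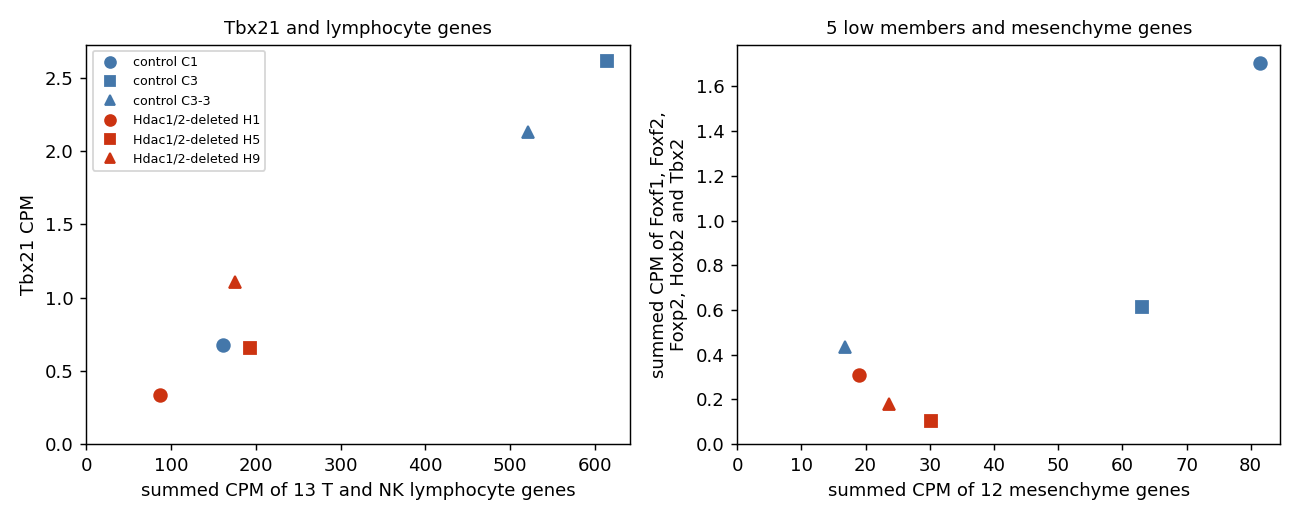
Left, Tbx21 CPM against the summed CPM of 13 T and NK lymphocyte genes in each of the 6 mice. Right, the summed CPM of Foxf1, Foxf2, Foxp2, Hoxb2 and Tbx2 against that of 12 mesenchyme genes, which include the increased gene Pdgfrb. C3 and C3-3 are high on both axes at left, C1 is the high mouse at right, and the 3 Hdac1/2-deleted mice lie low on the vertical axis in both plots.

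The increased genes were set beside the other cell types as well. Endothelial genes, 6 in all, summed to 1.47 to 2.96 CPM in controls and 1.67 to 3.12 CPM in deleted IEC, and 0 of the 2 tested were called by either tool or had an unadjusted p under 0.05. Myeloid genes, 8 in all, summed to 16.2 to 24.8 and 25.8 to 51.5 CPM, and 3 of the 8 were increased. Of 4 tested B and plasma cell genes 1, Cd79b, was increased. The background for both lists is 12.4 percent. The part of these cells in the increases was not tested.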

How the data were processed

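RNA of jejunal IEC from 3 control and 3 Hdac1/2-deleted mice was sequenced from poly(A)-selected, directional libraries. The authors deposited raw counts of reads per gene, aligned with STAR (2.4.0f1 in the submitters' processing notes, which name mm9, whereas the methods name GRCm38). The counting program, its annotation and its use of strand are not given in the sources used here. The deposited table also holds scaled rounded counts and the authors' log2 fold changes, mean expression and p-values, which were not used.

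Genes were filtered with filterByExpr, normalized with TMM and fitted to group with edgeR 4.0.16 (robust quasi-likelihood, prior count 0.125, limma 3.58.1, R 4.3.3). Calls required an adjusted p of at most 0.05 over 15618 genes and a 2-fold change. The steps were tested on simulated data. Exon lengths, gene positions and exon overlaps were read from the GENCODE mouse annotation, release 21 (GRCm38), which held all 65 genes, and promoters from RefSeq. Scripts ran in Python 3.11.15 with scipy 1.17.1, and plots were drawn with matplotlib 3.10.9. Values were given for each called gene but 1, which is counted in the totals and not reported here, for the most abundant gene of each family and for called partner genes, and further genes were named after their values were seen. The genes and lists were chosen with earlier results of these data known. Alternatives changed the normalization, the test (DESeq2 1.42.0), the filter on low counts and the fold limit, and left out each mouse in turn.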

Additional observations from a re-analysis of the deposited data

How the results depend on the processing

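The 12 increased genes became 11 to 13 and the 3 decreased genes 3 to 4 when each mouse was left out in turn. Scaling by library totals alone, which shifted the median log2 fold change of all genes by 0.189 and the calls of all genes from 1944 increased and 1990 decreased to 2463 and 1538, left 1 decreased gene of the 65, Foxj2, a Fox gene: Foxo4 (-0.91) and Foxq1 (-0.97) fell short of 2-fold, while Foxd2 (1.65) and Foxp4 (1.11) made 5 increased Fox genes. Without the 2-fold limit 6 Fox genes were increased. Decreased Hox genes numbered 1 instead of 0 with no filter on low counts and with a mean of at least 10 counts, in both cases Hoxb2, and 0 to 2 across the fits without a mouse (Hoxb2 and Hoxb4). Decreased Tbx genes numbered 0 to 1 in those fits, the 1 being Tbx21 without C1. With no filter Hoxa13 was increased (log2 fold change 6.43, adjusted p = 0.0123), and Hoxb9 had no value at a mean of at least 10 counts. The sign of Six5 turned with DESeq2 size factors (0.0044), library totals (0.1588) and the DESeq2 test (0.0056), and ranged from -0.44 to 0.31 without a mouse. That of Tbx3 ranged from -0.20 to 0.14. Foxd3 was called without C3 (adjusted p = 0.0471). Over the alternatives of 19 named genes, 190 values kept direction and call, 8 lost the call, 2 gained it and 8 changed sign, all 8 of them from Six5 and Tbx3. The cause was not tested. Counting depth limits most Hox, Dlx and Lhx genes, which had few reads.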
